A study of Mus musculus with 6 samples.

Results

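The heart takes most of its energy from long-chain fatty acids. Lipoprotein lipase frees them from circulating triglyceride, CD36 and fatty acid transport protein carry them into the cardiomyocyte, and acyl-CoA synthetases trap them as thioesters. The carnitine shuttle moves the acyl groups into the mitochondrion, where beta-oxidation shortens them step by step and hands electrons to the electron transfer flavoprotein. Transcription of these genes is driven by the nuclear receptors PPAR, RXR and ERR with coactivators of the PGC family, and the programme is known to decline in failing hearts.

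Described here are 40 genes of fatty acid uptake and mitochondrial beta-oxidation in the infarcted mouse heart, with the triglyceride enzymes and transcription factors that serve them. They were the rows of the deposited gene table whose Ensembl identifiers map to the 40 symbols, among 52550 rows in all. Genes that respond strongly to fasting, such as Pdk4, Ucp3 and Cpt1a, were left out of the set by its definition. All 40 had FPKM (fragments per kilobase of transcript, scaled to a fixed number of mapped fragments) of at least 0.5 in 3 or more libraries and were among the 14656 genes tested.

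The samples were whole hearts of 6 C57BL/6 mice, 3 wild type (WT) and 3 of the genotype lncRNA-DRR-/- (KO), which lack a long noncoding RNA. In every mouse the left anterior descending coronary artery was tied for good at 8 weeks of age. The animals were 10 weeks old at harvest, which is 2 weeks later. Surgery and age were thus shared by both genotypes, and no heart without an infarct was analysed here. The labels give neither sex, feeding state nor time of day for any animal, and do not say how the deletion was made or whether several matings or sessions were used, so the p-values speak only of how far these 6 samples scatter. Approximate depth, read from the FPKM worth of a single fragment, lay between 5189000 and 9398000 fragments per library. The noncoding gene Xist stood at 25.6 FPKM in KO replicate 3 and at 0.0742 FPKM or less in the other 5 libraries, so KO replicate 3 stands apart in sex-linked expression. The deleted RNA could not be tied to a row of the table, and gives no check on the genotype labels.

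WT replicate 1 and KO replicate 2 stood apart from the other libraries in cardiomyocyte and scar genes. Deviations are given as the mean log2 difference of a gene list from its own mean over the 6 libraries. The 18 cardiomyocyte genes deviated by -0.23 in WT replicate 1 and by -0.48 in KO replicate 2, and by 0.05 to 0.32 in the other 4 libraries. Cardiomyocyte identity itself was plain in every library, with the myosin heavy chain gene Myh6 between 1568 and 2814 FPKM and the myoglobin gene Mb between 7018 and 12920 FPKM. The 12 fibroblast and scar genes went the other way, with 0.40 in WT replicate 1 and 0.62 in KO replicate 2 against -0.54 to 0.12 in the others. Collagen gene Col3a1 reached 511 and 552 FPKM in these libraries and 197 to 333 FPKM elsewhere. Other libraries stood apart in rarer tissue. The 6 liver genes summed to 53.8 FPKM in WT replicate 3, with the albumin gene Alb at 37.3 FPKM. Elsewhere they summed to 1.16 to 2.47 FPKM. WT replicate 3 was the highest library for 15 of the 40 genes, against 17.9% of all genes tested. KO replicate 3 was the highest for 12, against 17.7% of all genes. The part of liver tissue in these levels was not tested. The 7 skeletal muscle genes summed to 26.2 FPKM in WT replicate 1 and to 0.513 to 7.22 FPKM in the others. In bulk tissue, fewer cardiomyocytes and less RNA per cardiomyocyte cannot be told apart.

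None of the 40 genes was called different between KO and WT hearts. limma called 0 of 40 at an adjusted p under 0.05, against 0.375% of all genes tested (55 of 14656). At an unadjusted p under 0.05 the count was 1 of 40, against 8.48% of all genes. Every log2 difference given below is KO minus WT on the scale of log2(scaled FPKM + 0.5), ± SE, with n = 3 per genotype. The differences ran from -0.31 to 0.80 with a median of -0.05, beside a median of -0.004 over all genes tested. Lower in KO were 26 of the 40 (65.0%, against 50.7% of all genes), and higher were 14. The 95% interval of the difference lay within a 2-fold change in either direction for 39 genes and within a 1.5-fold change for 18. Acsl1 was the exception to the former. A p that misses the threshold does not show equal levels, and for the other 22 genes these libraries leave room for a difference of at least 1.5-fold.

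**Figure D1:**
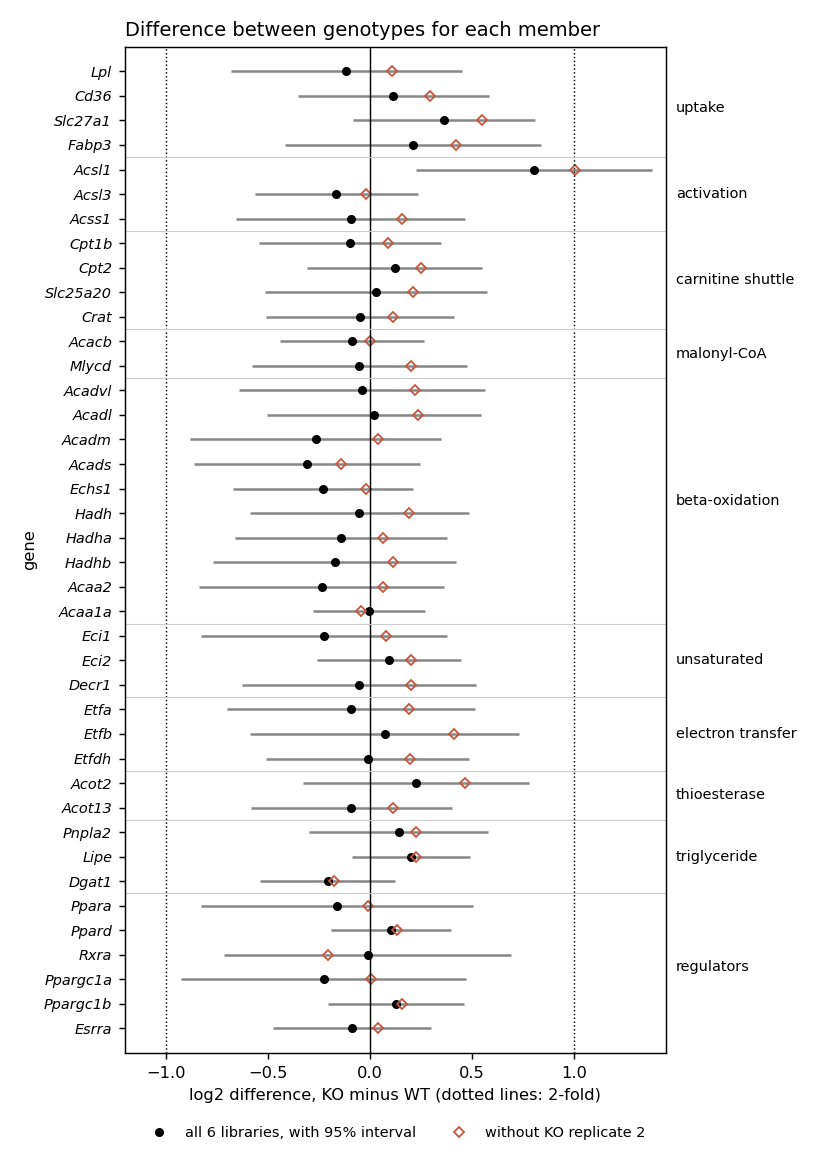
Log2 difference between KO and WT hearts (x axis, KO minus WT on log2(scaled FPKM + 0.5)) for each of the 40 genes, ordered by role. Black points and grey bars are the estimate and its 95% interval from all 6 libraries, open diamonds the estimate without KO replicate 2, and dotted lines a 2-fold change. Intervals of 39 genes include 0, that of Acsl1 does not, and most diamonds lie to the right of their points.

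Many of the genes were low in the same libraries. In KO replicate 2, 26 of the 40 were at their lowest of the 6 libraries, against 20.6% of all genes tested, and in WT replicate 1 another 9 were. Averaged over the 40 genes, the deviations were -0.20, 0.04 and 0.18 in WT replicates 1 to 3 and 0.15, -0.36 and 0.19 in KO replicates 1 to 3. The genotypes therefore overlapped, and the low libraries were those with low cardiomyocyte and high scar genes; the part of tissue make-up in these levels was not tested. In 30 of the 40 genes (75%, against 57.9% of all genes) the SD over the KO libraries was larger than that over the WT libraries. The median SD on the log2 scale was 0.36 in KO and 0.22 in WT.

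**Figure D2:**
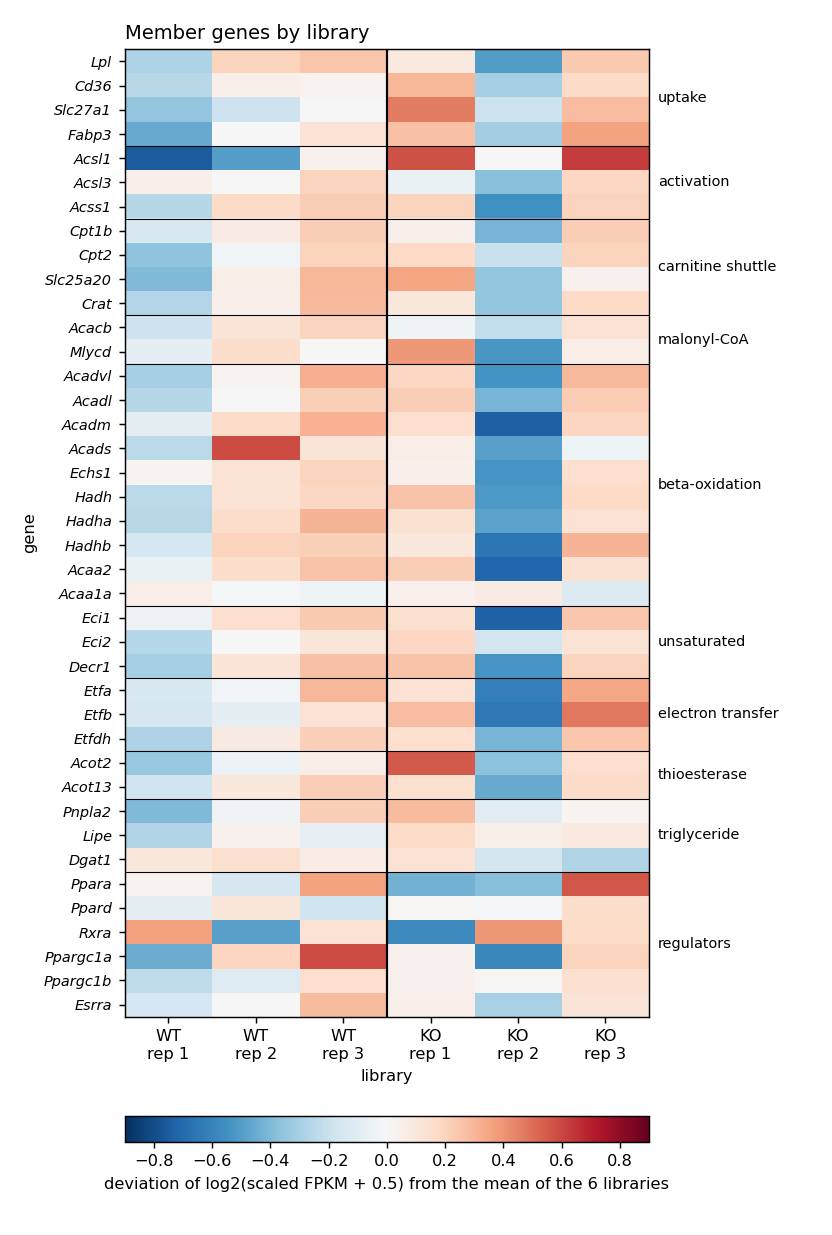
Heat map of the 40 genes (rows, grouped by role) in the 6 libraries (columns). Colour is the deviation of log2(scaled FPKM + 0.5) from the gene's mean over the 6 libraries. KO replicate 2 is blue in most rows of beta-oxidation and electron transfer, and WT replicate 1 is blue in a milder way, while Rxra and Acaa1a do not share the pattern.

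**Figure D3:**
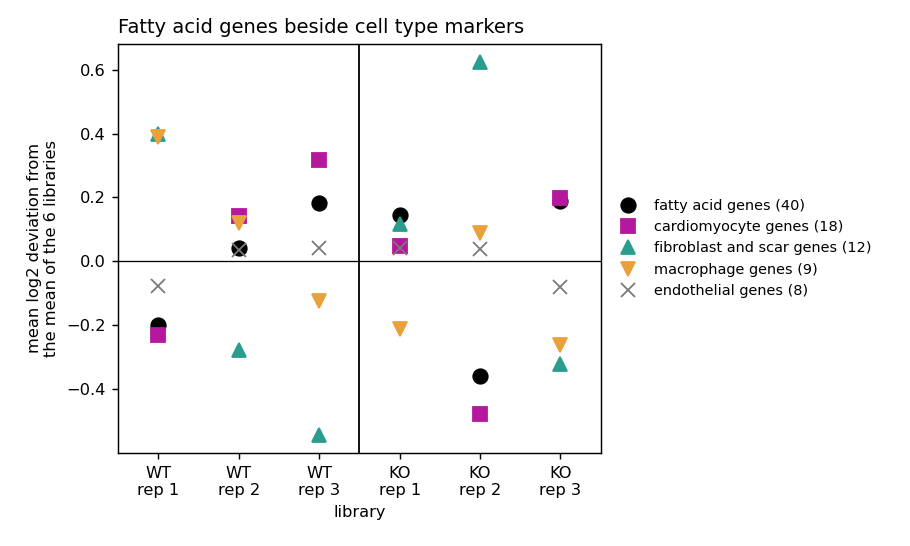
Mean log2 deviation from the mean of the 6 libraries (y axis) by library (x axis) for the 40 fatty acid genes and for 4 lists of cell type markers, with the number of genes in each list in the key. The fatty acid genes (black) and the cardiomyocyte genes (squares) are lowest in KO replicate 2 and WT replicate 1, where the fibroblast and scar genes (triangles) are highest.

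The direction of the group as a whole rested on single libraries. Without KO replicate 2, 7 of 40 genes were lower in KO and the median log2 difference was 0.15. Without WT replicate 3, 17 were lower and the median was 0.03. Leaving out any other library kept the median below 0 (-0.18 to -0.03), including KO replicate 3 with its different sex-linked expression (27 lower, median -0.15). With WT replicate 1 and KO replicate 2 both left out, a choice made after the data were seen, 17 were lower and the median was 0.02. No gene of the set was called in any of these fits. When libraries were scaled to the cardiomyocyte genes instead, the median of all genes tested shifted to 0.13, and that of the 40 genes (0.10) lay 0.03 below it.

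**Figure D4:**
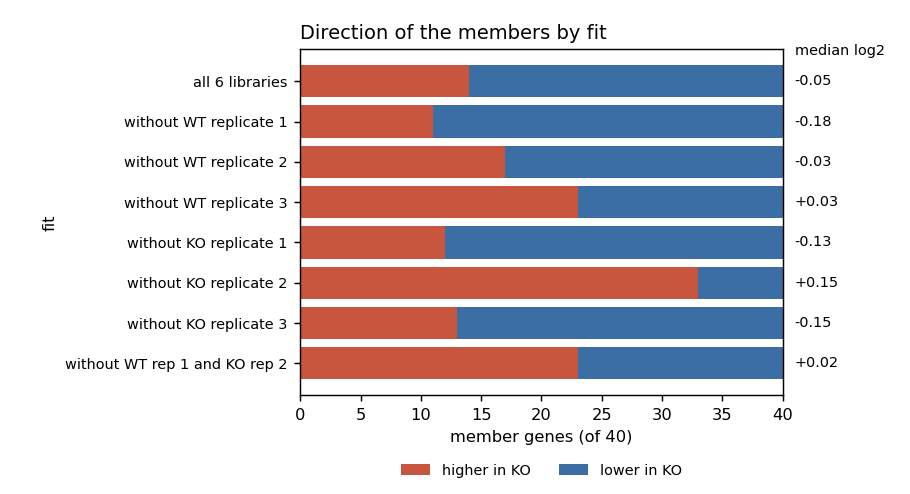
Number of the 40 genes higher (red) or lower (blue) in KO hearts (x axis) in the fit of all 6 libraries and with libraries left out (rows), with the median log2 difference at the right. The split turns from 26 lower to 7 lower when KO replicate 2 is left out.

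Among the genes of activation, Acsl1 had the largest difference of the 40. It encodes the acyl-CoA synthetase that activates most long-chain fatty acids in the heart. Acsl1 stood at 26.7, 29.6 and 41.2 FPKM in WT replicates 1 to 3 and at 60.2, 44.8 and 63.9 FPKM in KO replicates 1 to 3. In deposited FPKM every KO library was above every WT library. On the scaled log2 values that were fitted, the genotypes overlapped, with WT replicate 3 (a deviation of 0.04) just above KO replicate 2 (0.0006). The mean was 32.5 ± 7.7 FPKM over the WT hearts and 56.3 ± 10.1 FPKM over the KO hearts (SD, n = 3 each). The log2 difference was 0.80 ± 0.25, with a 95% interval from 0.23 to 1.38, and limma gave an unadjusted p of 0.013 and an adjusted p of 0.374, so Acsl1 was not called. Over all alternative settings its log2 difference stayed between 0.63 and 1.02 and its limma adjusted p between 0.2003 and 0.8289.

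Acsl1 was also set against its own pathway. The ratio of Acsl1 to Cpt1b, the next enzyme on the route, was 0.392, 0.404 and 0.531 in WT and 0.870, 0.805 and 0.801 in KO replicates 1 to 3. This ratio was chosen after the values were seen, and it is given as a description. When each gene was taken relative to the mean of the other 39, Acsl1 and 8 more genes of the set (9 of 40) showed no overlap between the genotypes. They went both ways. Acsl1, Slc27a1, Fabp3 and Acot2 were higher in KO, and Acadm, Acads, Echs1, Eci1 and Acot13 were lower. The relative measure takes out the library shifts that the genes share, and on the scaled values themselves 1 of 40 showed no overlap. Its share over all genes was not computed, so the count is a description only. Acsl3, a synthetase linked to lipid droplets, differed in the other direction, with 3.49, 3.11 and 3.50 FPKM in WT against 2.86, 2.45 and 3.55 in KO libraries (log2 difference -0.16 ± 0.17, limma adjusted p = 0.855), and its genotypes overlapped. Acss1, which activates acetate in the mitochondrion, stood at 46.6 ± 5.6 FPKM over the WT hearts and 43.9 ± 10.2 FPKM over the KO hearts (SD, n = 3 each).

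The 250 bases before the RefSeq start of Acsl1 are shown because it was the gene of largest difference. The gene occupies 46471037 to 46536051 of chromosome 8 on the plus strand (GRCm38); the stretch spans chr8:46470787-46471036 on the plus strand of GRCm38.p6. Capitals mark GGGCGG, the GC box bound by Sp1-type factors.
Acsl1 upstream: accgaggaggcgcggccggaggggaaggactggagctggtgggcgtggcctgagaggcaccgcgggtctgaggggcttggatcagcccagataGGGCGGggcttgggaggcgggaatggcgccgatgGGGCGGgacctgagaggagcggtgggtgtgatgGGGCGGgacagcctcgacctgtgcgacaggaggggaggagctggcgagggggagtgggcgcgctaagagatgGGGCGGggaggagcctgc
RefSeq gives Acsl1 another start as well, whose window (46490716 to 46491015 of chromosome 8, 50% G or C) holds no GGGCGG. The stretch shown holds 4 GC boxes, all on the plus strand, and 72.0% of its bases are G or C. RefSeq promoter windows (250 bases before to 50 after a start) were found for 32 of the 40 genes. Searched on both strands, GGGCGG occurred in 67.6% of the 37 windows of these genes and in 35.7% of all 32851 mouse windows, which is a description and not a sign of binding.

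Of the 4 genes of uptake, 3 were higher in KO hearts and 1 was lower, none of them called. Slc27a1, which encodes fatty acid transport protein, stood at 8.20, 8.55 and 9.38 FPKM in WT against 13.2, 9.10 and 11.8 in KO replicates 1 to 3. Only KO replicate 2 fell inside the WT range, and the log2 difference was 0.36 ± 0.19 (limma adjusted p = 0.694). Fabp3, the heart-type fatty acid binding protein gene, was the most abundant gene of the set. It measured 1183, 1497 and 1565 FPKM in WT against 1728, 1288 and 1890 in KO libraries, so that KO replicate 2 lay inside the WT range (0.21 ± 0.27, limma adjusted p = 0.884).

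Cd36, the scavenger receptor gene through which much of the fatty acid enters the cardiomyocyte, gave 340.2, 387.4 and 365.5 FPKM in WT against 442.5, 325.5 and 415.1 in KO libraries. KO replicates 1 and 3 were above every WT heart and KO replicate 2 below every WT heart (log2 difference 0.12 ± 0.20, limma adjusted p = 0.922). Lpl, the lipoprotein lipase gene, ranged from 274 to 354 FPKM in WT and from 232 to 356 FPKM in KO hearts (-0.11 ± 0.24). Without KO replicate 2 the log2 difference was 0.55 for Slc27a1, 0.42 for Fabp3, 0.30 for Cd36 and 0.11 for Lpl, none called (limma adjusted p from 0.3003 to 0.9005). These were the highest values with 1 library left out. The lowest were 0.22 for Slc27a1, 0.04 for Fabp3, -0.0025 for Cd36 and -0.28 for Lpl.

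**Figure D5:**
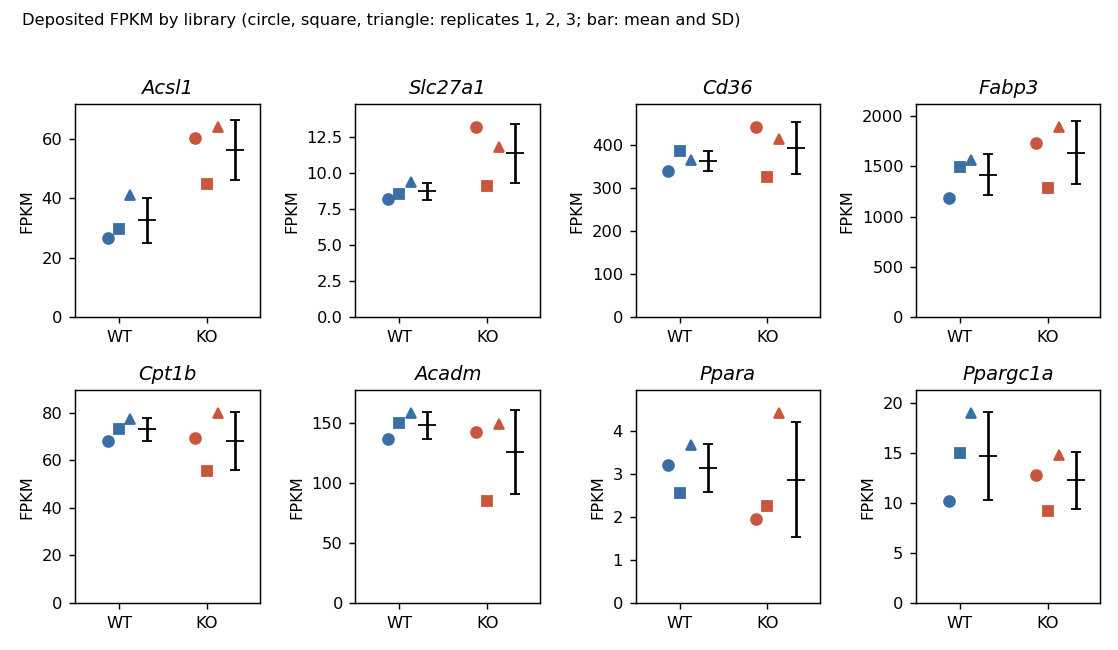
Deposited FPKM (y axis, from 0) of 8 genes in WT (blue) and KO (red) hearts. Circles, squares and triangles are replicates 1, 2 and 3, and bars are the mean ± SD of 3 hearts. Of these 8 genes Acsl1 is the one whose genotypes do not overlap in deposited FPKM, and the KO square is the lowest KO point for all but Ppara.

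The 4 genes of the carnitine shuttle differed by -0.10 to 0.12 on the log2 scale, and all 4 intervals lay within a 1.5-fold change. Cpt1b encodes the muscle-type palmitoyltransferase of the outer mitochondrial membrane, the gate of the pathway. Its levels were 68.2, 73.3 and 77.6 FPKM in WT against 69.3, 55.7 and 79.9 in KO libraries, which overlapped (-0.10 ± 0.19, limma adjusted p = 0.934). Its interval ran from -0.54 to 0.35. A readthrough gene annotated on the same strand covers 81.4% of the exonic bases of Cpt1b. No row of the deposited table matched that gene, so how reads over the shared bases were counted is not known. Cpt2, the palmitoyltransferase of the inner membrane, had 32.1, 37.5 and 42.1 FPKM in WT against 41.6, 35.6 and 43.3 in KO libraries (0.12 ± 0.18, limma adjusted p = 0.907). Slc25a20, the carnitine-acylcarnitine exchanger gene, averaged 20.5 ± 3.7 and 20.8 ± 4.1 FPKM, and Crat, the carnitine acetyltransferase gene, 43.0 ± 5.7 and 41.3 ± 5.8 FPKM in WT and KO hearts (SD, n = 3 each).

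Malonyl-CoA blocks the carnitine gate, and its synthesis and removal were measured by a gene each. Acacb, the acetyl-CoA carboxylase that makes it at the outer membrane, stood at 16.8, 19.4 and 19.6 FPKM in WT against 16.6, 16.3 and 19.1 in KO replicates 1 to 3 (-0.09 ± 0.15, limma adjusted p = 0.923). Mlycd, the decarboxylase that removes it, had 15.2, 16.8 and 14.4 FPKM in WT against 18.99, 10.96 and 15.32 in KO hearts (-0.05 ± 0.23, limma adjusted p = 0.975). Mlycd thus held both the highest and the lowest of its 6 values in KO hearts.

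Of the 10 genes of the beta-oxidation cycle, 9 were lower in KO hearts (50.7% of all genes were), with a median log2 difference of -0.16 and 0 called. Without KO replicate 2, 3 were lower and 7 higher, with a median of 0.06. Without WT replicate 1, 9 were lower with a median of -0.28, and without WT replicate 3, 7 were lower with a median of -0.07. The cardiomyocyte genes moved alongside, with 15 of 18 lower and a median of -0.13 in all libraries, and 6 of 18 lower and a median of 0.05 without KO replicate 2; their part in the result was not tested. KO replicate 2 was the lowest library for every one of the 10 but Acaa1a. Acadm, the medium-chain acyl-CoA dehydrogenase gene, illustrates this with 136, 149.9 and 158 FPKM in WT against 142, 85.3 and 149 in KO replicates 1 to 3. The other 2 KO hearts lay within the WT range, and the log2 difference of -0.26 ± 0.26 (limma adjusted p = 0.849) became 0.04 without KO replicate 2. Acads, the short-chain dehydrogenase gene, had the lowest difference of the set (-0.31 ± 0.24, limma adjusted p = 0.808). Its levels were 21.1, 35.1 and 24.0 FPKM in WT against 23.3, 17.5 and 22.1 in KO libraries, with WT replicate 2 far above the rest.

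The hydratase gene Echs1 measured 15.85, 15.74 and 15.93 FPKM in WT against 14.29, 10.49 and 15.73 in KO libraries. Its genotypes did not overlap in deposited FPKM, where the closest values were 15.74 and 15.73, but they did on the scaled values, and the difference (-0.23 ± 0.19, limma adjusted p = 0.822) was not called. Together with Acsl1 and Lipe it made 3 of 40 genes without overlap in deposited FPKM, or 7.5%, against 12.8% of all genes tested. Acsl1 and Lipe were the 2 higher in KO, a class that held 5.29% of all genes. On the scaled values Lipe was the 1 gene of 40 without overlap (2.5%), against 14% of all genes. The dehydrogenases for longer chains showed means of 146.0 ± 22.5 and 143.0 ± 34.5 FPKM (Acadvl, very long chains) and 290.1 ± 29.3 and 294.8 ± 55.5 FPKM (Acadl, long chains) in WT and KO hearts. Hadh, a hydroxyacyl-CoA dehydrogenase gene, averaged 68.6 ± 6.8 and 66.6 ± 14.8 FPKM. Of the thiolases, which cut off acetyl-CoA, the mitochondrial Acaa2 averaged 170.3 ± 8.29 and 147.4 ± 40.5 FPKM and the peroxisomal Acaa1a 5.13 ± 0.53 and 5.07 ± 0.60 FPKM (SD, n = 3 each). The exons of Acadvl overlap those of Dvl2 on the opposite strand over 42.9% of its exonic bases, but Dvl2 had at most 1.49 FPKM. Myd88, at 3.93 to 10.2 FPKM, shares 6.57% of the exonic bases of Acaa1a on the opposite strand, and Acaa1a has a near-identical paralog, so its level is uncertain.

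Hadha and Hadhb encode the subunits of the mitochondrial trifunctional protein, which carries out the last steps on long chains. Hadha gave 83.4, 102.5 and 108.5 FPKM in WT against 97.3, 70.2 and 98.6 in KO replicates 1 to 3 (-0.14 ± 0.22, limma adjusted p = 0.916). Hadhb, singled out after its values were seen, gave 82.2, 97.5 and 94.1 FPKM in WT against 87.0, 57.4 and 103 in KO hearts (-0.17 ± 0.25, limma adjusted p = 0.907). The ratio of the subunits stayed between 0.959 and 1.22 over the 6 libraries, without separating the genotypes. The genes lie back to back on chromosome 5, Hadha on the minus strand (30118304 to 30155162) and Hadhb on the plus strand (30155248 to 30184593, GRCm38).

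The 85 bases between their GENCODE starts (chr5:30155163-30155247, read on the plus strand, GRCm38.p6, from RefSeq) are shown because a pair of genes with nearly equal levels leaves from them, with GC boxes in capitals. The 250 bases before the start of Acadm (chr3:153944644-153944893, minus strand) are shown because that window was among the few of the set with AAGGTCA, the core of the site that ERR receptors bind, in capitals as its complement TGACCTT.
Hadha-Hadhb interval: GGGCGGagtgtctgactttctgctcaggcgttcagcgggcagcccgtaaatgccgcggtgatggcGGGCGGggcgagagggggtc
Acadm upstream: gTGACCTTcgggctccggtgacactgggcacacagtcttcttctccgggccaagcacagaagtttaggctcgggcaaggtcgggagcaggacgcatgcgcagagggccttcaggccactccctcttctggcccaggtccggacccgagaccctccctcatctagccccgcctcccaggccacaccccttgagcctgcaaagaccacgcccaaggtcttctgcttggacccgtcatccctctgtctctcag
The core AAGGTCA was present in the windows of 3 genes (Acadm, Acacb and Rxra), or 8.11% of the windows of the set against 4.72% of all windows. The full ERR element TCAAGGTCA, which contains that core, was in 0 of the 37 windows and 0.423% of all, and the PPAR-RXR repeat, AGGTCA and AGGTCA with any 1 base between, in 0 of 37 and 0.0396% of all. These letters were searched in windows close to the start only, on both strands.

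The enzymes that prepare unsaturated chains for the cycle followed the same libraries. Eci1, an enoyl-CoA isomerase gene, stood at 90.1, 95.7 and 97.2 FPKM in WT against 91.6, 55.5 and 100.1 in KO replicates 1 to 3 (-0.23 ± 0.26, limma adjusted p = 0.867), so that KO replicate 2 lay far below a narrow WT range and KO replicate 3 just above it. Its relative Eci2 had 11.59, 12.95 and 13.32 FPKM in WT against 14.16, 12.19 and 13.85 in KO hearts (0.10 ± 0.15, limma adjusted p = 0.916). Decr1, the dienoyl-CoA reductase gene, averaged 55.0 ± 7.5 and 53.3 ± 12.3 FPKM (SD, n = 3 each).

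Electrons from the acyl-CoA dehydrogenases pass to the flavoprotein of Etfa and Etfb and on to the dehydrogenase of Etfdh. Etfb showed the widest KO range of the 3, with 131.5, 127.5 and 141.3 FPKM in WT against 157.5, 92.55 and 184.2 in KO replicates 1 to 3. KO replicates 1 and 3 were above all WT hearts and KO replicate 2 below them (0.07 ± 0.28, limma adjusted p = 0.972). A gene annotated on the same strand covers 53.0% of the exonic bases of Etfb, and had at most 3.86 FPKM. Etfa stood at 129, 129 and 154 FPKM in WT against 138, 91.4 and 164 in KO hearts (-0.09 ± 0.26, limma adjusted p = 0.957). Etfdh averaged 49.5 ± 5.5 and 49.1 ± 9.3 FPKM, a log2 difference of -0.01 ± 0.21.

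Acyl-CoA thioesterases, which free fatty acids from coenzyme A again, were measured by Acot2, an enzyme of the mitochondrial matrix, and by the mitochondria-associated Acot13. Acot2 had 12.64, 14.38 and 14.85 FPKM in WT against 21.3, 12.24 and 16.35 in KO libraries (0.23 ± 0.24, limma adjusted p = 0.855). KO replicate 1 stood out at the top. Acot2 has near-identical neighbours in its family, among them the fasting-responsive Acot1, so its share of their reads is uncertain. Acot13 was far more abundant, with 211, 236 and 246 FPKM in WT against 234, 172 and 244 in KO hearts (-0.09 ± 0.21, limma adjusted p = 0.946).

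Among the genes of the triglyceride store, the hormone-sensitive lipase gene Lipe was higher, also after scaling, in every KO heart (9.55, 9.79 and 9.20 FPKM) than in every WT heart (7.828, 9.075 and 7.98 FPKM). The margin after scaling was narrow, with KO replicate 2 at a deviation of 0.052 and WT replicate 2 at 0.039. The log2 difference of Lipe was 0.20 ± 0.12 and was not called (limma adjusted p = 0.742). Here KO replicate 2 was the highest library in deposited FPKM. Dgat1, which makes triglyceride, stood at 4.583, 4.385 and 3.937 FPKM in WT against 4.16, 3.68 and 3.10 in KO hearts, with KO replicate 1 inside the WT range (-0.21 ± 0.14, limma adjusted p = 0.780). Pnpla2, the adipose triglyceride lipase gene, averaged 57.0 ± 8.7 and 62.0 ± 5.9 FPKM (SD, n = 3 each). Fat cells also express these genes, and the 8 white adipocyte markers summed to 0.424 to 31.5 FPKM in WT against 5.71 to 8.20 in KO libraries. Their defining gene Adipoq reached at most 3.03 FPKM; the part of fat cells in these levels was not tested.

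The 6 transcription factors and coactivators differed by -0.23 to 0.13 on the log2 scale, and 4 of them were lower in KO hearts. Ppara, the receptor gene best known for driving cardiac fatty acid oxidation, had 3.21, 2.56 and 3.69 FPKM in WT against 1.95, 2.25 and 4.43 in KO replicates 1 to 3. KO replicates 1 and 2 were the lowest libraries and KO replicate 3 the highest (-0.16 ± 0.29, limma adjusted p = 0.926). Without KO replicate 3, the library that reads as female, the log2 difference was -0.48 (limma adjusted p = 0.509). The part of sex in the Ppara values was not tested. Ppard, its relative with a broader tissue range, stood at 7.13, 7.59 and 5.87 FPKM in WT against 6.79, 7.43 and 7.71 in KO hearts (0.10 ± 0.13, limma adjusted p = 0.880).

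Rxra encodes the shared partner of these receptors and is described because, once its values were seen, its order of libraries was unlike that of the enzymes. It measured 12.8, 6.31 and 9.49 FPKM in WT against 5.69, 12.8 and 10.00 in KO libraries, highest in WT replicate 1 and KO replicate 2, where the enzymes were low. The genotype means of Rxra were 9.529 ± 3.235 and 9.499 ± 3.586 FPKM, a log2 difference of -0.01 ± 0.30 whose interval from -0.71 to 0.69 is wide. Ppargc1a, the coactivator gene that responds to energy demand, had 10.21, 14.97 and 18.97 FPKM in WT against 12.83, 9.156 and 14.76 in KO hearts (-0.23 ± 0.30, limma adjusted p = 0.890). Its WT hearts spanned a wider range than its KO hearts. Ppargc1b, the related coactivator, stood at 3.168, 3.208 and 3.795 FPKM in WT against 3.494, 3.799 and 3.865 in KO hearts (0.13 ± 0.14, limma adjusted p = 0.860). Esrra, the gene of the receptor ERR alpha, had 23.4, 24.0 and 28.1 FPKM in WT against 23.87, 20.9 and 25.65 in KO libraries (-0.09 ± 0.17, limma adjusted p = 0.931).

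Other genes of lipid handling were placed beside the set, and 0 of their members were called in any of 7 lists. Of 15 tested genes of uptake outside the set, 10 were higher in KO (median log2 difference 0.07). An unadjusted p under 0.05 was reached by 5, against 8.48% of all genes, in a list chosen with earlier results known. Fabp4 and Fabp5, binding protein genes of endothelial cells, macrophages and fat, showed genotypes that did not overlap. Fabp4 stood at 114, 133 and 120 FPKM in WT against 219, 158 and 189 in KO replicates 1 to 3 (0.62 ± 0.19, limma adjusted p = 0.372). Fabp5 ranged from 14.4 to 17.4 FPKM in WT and from 19.4 to 21.7 FPKM in KO hearts (0.38 ± 0.11, limma adjusted p = 0.298). Summed endothelial markers (8 genes) were 352 to 366 FPKM in WT against 324 to 411 in KO libraries, and macrophage markers (9 genes) 762 to 1334 and 728 to 993 FPKM; their part in the Fabp4 and Fabp5 values was not tested.

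Among 28 genes of lipid droplets and lipid synthesis, 14 were higher and 14 lower. Lpin1, a phosphatidate phosphatase gene, stood at 12.45, 11.01 and 12.17 FPKM in WT against 7.1, 7.905 and 8.786 in KO hearts (-0.54 ± 0.13, limma adjusted p = 0.206). Plin3, a droplet coat gene, was 50.3 to 55.6 FPKM in WT against 34.7 to 39.2 in KO hearts (-0.53 ± 0.14, limma adjusted p = 0.265). Neither pair of groups overlapped, on deposited or scaled values. Of 28 other genes of mitochondrial acyl-CoA handling 18 were lower (median -0.07), with Acot9 (-0.32 ± 0.13) and Acad8 (-0.31 ± 0.13) of smallest p (limma adjusted p = 0.530 and 0.558).

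Peroxisomal oxidation, with 15 tested genes, had 8 higher and 7 lower (median 0.04). Its genes of smallest p were Crot (-0.26 ± 0.14) and Hsd17b4 (0.13 ± 0.12), with limma adjusted p of 0.701 and 0.841. Ketone body genes were higher in 5 of 6 cases, among them Bdh1, a ketone body dehydrogenase gene, by 0.64 ± 0.39 (limma adjusted p = 0.735). Bdh1 stood at 6.347, 16.53 and 17 FPKM in WT against 15.97, 19.84 and 22.1 in KO replicates 1 to 3, and without WT replicate 1 its log2 difference was 0.15 (limma adjusted p = 0.8575). Of 26 other regulators 15 were lower, and Rxrg, the RXR gene of striated muscle, stood at 13.03 to 15.21 FPKM in WT against 7.26 to 10.6 in KO hearts (-0.66 ± 0.18, limma adjusted p = 0.294). Nrip1, a corepressor gene, differed by 0.41 ± 0.18 (limma adjusted p = 0.595).

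The fasting-responsive genes kept out of the set showed larger values. Of 8 tested, 7 were higher in KO hearts with a median log2 difference of 0.85 (50.7% of all genes were lower). An unadjusted p under 0.05 was reached by 6, against 8.48% of all genes. The list was chosen with earlier results of these data known, so these counts are a description. Ucp3, a mitochondrial carrier gene, had 3.252 to 5.496 FPKM in WT against 9.63 to 16.9 in KO hearts (1.56 ± 0.28, limma adjusted p = 0.096), and Ucp2 differed by 0.85 ± 0.16 (limma adjusted p = 0.106). Whether the lists differ from the 40 genes was not tested.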

How the data were processed

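The authors deposited FPKM per gene for 6 libraries (Illumina TruSeq, whole-heart RNA, per the labels' protocols), in a table titled as counts whose values are not whole. Bowtie 0.12.2 and the builds mm8 and mm9 are named, without a role, in the submitters' processing notes. For the quantifier, annotation and use of strand, the step is not given in the sources used here. Of 52550 rows, 52403 matched GENCODE M21 (GRCm38) by identifier, which gave symbols and positions; no coordinate was converted. All 37 mitochondrial genes are listed at 0, while 8 nuclear pseudogenes hold 43.6% to 56.0% of FPKM.

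Libraries were scaled by trimmed means of log2 ratios (trims 0.3 and 0.05, unweighted), and genes with FPKM of at least 0.5 in 3 libraries were kept. The fit used limma 3.58.1 (R 4.3.3) on log2(scaled FPKM + 0.5), with genotype as the sole term, a mean-variance trend, two-sided p-values and Benjamini-Hochberg adjustment over all 14656 genes. Differences on this scale understate those of low genes. The 95% intervals are limma's, unadjusted. The fit was run on simulated data with independent noise for each gene. Those data did not hold the library shifts that many genes share here. Members and lists were chosen with earlier results of these data known. Values per library are given for any called gene, the 2 genes of smallest p in each role and 7 fixed genes. From other pathway lists the 2 genes of smallest p are named (1 such gene is not reported here), and from cell type lists up to 3 of highest FPKM. Hadhb and Rxra were added after their values were seen, as was the GGGCGG search. RefSeq gave the promoter windows (GRCm38.p6). The alternatives were other scalings, filters, pseudocounts (0.1 and 1), a robust fit, a replicate block and leaving out libraries.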

Additional observations from a re-analysis of the deposited data

How the results depend on the processing

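Under all 17 alternatives 0 of the 40 genes were called. Lower in KO were 26 of 40 under every other scaling by the whole table, every filter, every pseudocount, the robust fit and the replicate block, and the median log2 difference there stayed between -0.06 and -0.05. With 1 library left out, 7 to 29 genes were lower and the median ran from -0.18 to 0.15. With WT replicate 1 and KO replicate 2 both left out, chosen after the data were seen, 17 were lower, the median was 0.02 and 3 genes were called over all genes. With scaling to the cardiomyocyte genes 10 were lower, the median was 0.10 (all genes 0.13), and 34 genes were called over all genes. Without a filter 20 genes were called over all genes, and with 1 library left out 12 to 36, against 55; fewer samples or more genes tested are part of how these fits are built. The labels do not say whether the replicate numbers of the titles pair the hearts. Correlations of deviations were 0.0076, -0.036 and 0.18 for equal numbers 1, 2 and 3, and -0.20 to 0.19 for unequal numbers. With so few libraries these values cannot settle whether animals were paired. With a replicate block 42 genes were called over all genes, none of the 40.

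No gene of the 40 was called in any setting, so changes of sign concern uncalled values, and their cause was not tested. Log2 differences that changed sign with scaling to the cardiomyocyte genes were Lpl 0.041, Acss1 0.060, Cpt1b 0.057, Crat 0.11, Acacb 0.064, Mlycd 0.10, Acadvl 0.12, Hadh 0.10, Hadha 0.014, Acaa1a 0.14, Decr1 0.10, Etfa 0.063, Etfdh 0.14, Acot13 0.065, Rxra 0.14, Esrra 0.066. With both libraries left out they were Acss1 0.012, Mlycd 0.15, Acadvl 0.066, Hadh 0.064, Eci1 0.0031, Decr1 0.041, Etfa 0.10, Etfdh 0.058, Acot13 0.0033. With 1 library left out, the following genes changed sign in at least 1 fit, and their log2 differences ranged as given: Lpl -0.28 to 0.11, Cd36 -0.0025 to 0.30, Acss1 -0.25 to 0.16, Cpt1b -0.23 to 0.087, Cpt2 -0.027 to 0.25, Slc25a20 -0.16 to 0.21, Crat -0.19 to 0.11, Acacb -0.20 to 0.00059, Mlycd -0.26 to 0.20, Acadvl -0.20 to 0.22, Acadl -0.10 to 0.24, Acadm -0.42 to 0.039, Hadh -0.19 to 0.19, Hadha -0.30 to 0.065, Hadhb -0.36 to 0.11, Acaa2 -0.40 to 0.064, Acaa1a -0.042 to 0.055, Eci1 -0.40 to 0.081, Eci2 -0.0094 to 0.20, Decr1 -0.21 to 0.20, Etfa -0.29 to 0.19, Etfb -0.14 to 0.41, Etfdh -0.15 to 0.20, Acot13 -0.20 to 0.11, Pnpla2 -0.023 to 0.29, Ppara -0.48 to 0.011, Rxra -0.25 to 0.27, Ppargc1a -0.51 to 0.011, Esrra -0.18 to 0.039. Depth of the table is known only approximately, so no interval was built on counts.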
